A study of Mus musculus with 4 samples.

Results

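The proteasome subunits and their regulators were taken as the genes of the deposited table whose symbol begins with Psma, Psmb, Psmc, Psmd or Psme followed by a digit. These were 51 of 32230 genes. They held 31 constitutive subunits, 14 of the core particle and 17 of the cap, and a set of 5 genes known as interferon-induced, Psmb8, Psmb9, Psmb10, Psme1 and Psme2. Cap assembly factors, other activators, tissue-specific subunits, gene copies and a pair of genes named after subunits made up the rest. The cells were 4F2A mouse embryonic fibroblasts from male homozygous embryos of 13.5 days post coitum, which carry reprogramming factors that doxycycline switches on. One group received CX-5461, an inhibitor of RNA polymerase I, for 1 hour on day 0. The other group received the solvent DMSO for the same hour. All cells of both groups were kept in 2 μg/mL doxycycline with leukaemia inhibitory factor and serum replacement, and RNA was harvested on day 2, after 48 hours of doxycycline. Each group had 2 libraries, numbered 2 and 3 in the labels, and the dose of CX-5461 is not given in the sources used here. The labels call the libraries parallel replicates without saying that they were separate cultures, so each p-value speaks only for the variation among these 4 libraries, and that variation may be technical.

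The proteasome degrades proteins tagged with ubiquitin. Its core is a barrel of stacked alpha and beta rings in which Psmb5, Psmb6 and Psmb7 hold the protease sites, and its cap has a base with a ring of ATPases that unfold and feed in the substrate and a lid that removes the ubiquitin. Interferon gamma induces Psmb8, Psmb9 and Psmb10, which take the places of Psmb5, Psmb6 and Psmb7 in the immunoproteasome and favour peptides that fit class I molecules, and it also induces Psme1 and Psme2, which form an alternative activator in place of the cap. The transcription factor encoded by Nfe2l1 is known to raise the constitutive subunits together, through antioxidant response elements, when the proteasome is impaired.

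Sequences at or before the starts of Psmb9, Psmb8, Psmb5, Psmb6 and Psme1 are shown. The constitutive and the induced genes are known to be switched by different factors. Only stretches with letters of a searched motif are printed, so they do not represent all the proteasome genes. They are RefSeq windows of build GRCm38.p6, a patch of the build also called mm10, read 5′ to 3′ along the gene, and 39 of the 51 genes were matched to a window. The first is the stretch of 225 bases between the starts of Psmb9 and Tap1, which run in opposite directions on chromosome 17 (chr17:34187331-34187555, plus strand), with the letters of a CCAAT box in capitals. The second is the 250 bases before Psmb8 (chr17:34197945-34198194, plus strand), with the letters of a gamma-activated site in capitals. The next pair is the 250 bases before Psmb5 (chr14:54617996-54618245, minus strand) and before Psmb6 (chr11:70525107-70525356, plus strand), with the core letters of an antioxidant response element in capitals. The last is a stretch of 30 bases at the start of Psme1 (chr14:55578493-55578522, plus strand), with the core letters of an interferon-stimulated response element in capitals, read on the opposite strand.
Psmb9-Tap1: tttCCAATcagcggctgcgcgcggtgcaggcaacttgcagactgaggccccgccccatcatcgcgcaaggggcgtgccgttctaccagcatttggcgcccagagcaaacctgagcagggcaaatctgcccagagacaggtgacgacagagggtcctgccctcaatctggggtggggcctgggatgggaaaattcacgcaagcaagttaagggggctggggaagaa
Psmb8: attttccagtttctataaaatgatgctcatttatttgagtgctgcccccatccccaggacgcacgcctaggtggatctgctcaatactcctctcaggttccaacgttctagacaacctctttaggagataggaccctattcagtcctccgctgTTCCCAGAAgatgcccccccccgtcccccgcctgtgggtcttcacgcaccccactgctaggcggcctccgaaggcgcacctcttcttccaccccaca
Psmb5: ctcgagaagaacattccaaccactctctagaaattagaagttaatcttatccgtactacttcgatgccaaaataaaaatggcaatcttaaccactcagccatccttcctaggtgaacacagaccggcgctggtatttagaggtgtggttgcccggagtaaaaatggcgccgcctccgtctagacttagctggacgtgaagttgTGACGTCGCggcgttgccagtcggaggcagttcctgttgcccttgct
Psmb6: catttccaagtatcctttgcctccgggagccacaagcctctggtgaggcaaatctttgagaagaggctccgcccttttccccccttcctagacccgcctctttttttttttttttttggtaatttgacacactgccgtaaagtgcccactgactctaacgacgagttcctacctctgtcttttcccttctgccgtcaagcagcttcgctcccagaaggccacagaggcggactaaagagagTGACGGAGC
Psme1 start: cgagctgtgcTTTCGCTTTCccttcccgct

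Motif letters were searched on both strands in each window of 300 bases, from 250 before to 50 after the start. Each proteasome gene was counted once, by the window at its outermost start. The share of all windows may count several starts of a gene. The antioxidant response element core (TGACNNNGC) was held by 4 of the 25 constitutive subunits with a window and by 0 of the 5 interferon-induced genes, against 12.39% of all 32851 windows. The interferon-stimulated response element core (GAAA, any 2 bases, GAAA) was held by 2 of the 25 and by 1 of the 5, against 3.44% of all windows. That 1 gene was Psme1, where the letters covered bases 10 to 19 counted from 1 at the gene start. The gamma-activated site (TTCNNNGAA) was held by 1 of the 25 and 1 of the 5, against 8.3% of all windows, and the CCAAT box (CCAAT) by 10 of the 25 and 1 of the 5, against 37.41%. Psmb10 and Psme2 held none of these letters in their windows. A match describes letters only, and the windows are short.

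The libraries were read at similar depth, with 35310900 to 37619500 reads per library as recovered from the deposited values. The values are TPM, a read number divided by gene length and scaled to the same total in every library. Mitochondrially encoded genes took 9.20% and 9.24% of the TPM in the CX-5461 libraries, against 9.96% in DMSO replicate 2 and 15.3% in DMSO replicate 3. DMSO replicate 3 stood apart in this share, and in 66.2% of all genes tested it lay below DMSO replicate 2. The fibroblast label was met by high collagen and vimentin mRNA in all libraries, with Vim at 2690 and 2616 TPM in CX-5461 cells and at 3514 and 3069 TPM in DMSO cells. In bulk RNA, fewer cells of a type and less RNA per cell cannot be told apart.

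No proteasome gene passed the test between CX-5461 and DMSO cells on day 2. Of the 51 genes, 45 had a mean of at least 1 TPM and were tested with limma. Differences are given as log2(TPM + 1) of CX-5461 cells less that of DMSO cells, so a positive one means higher in CX-5461 cells. At an adjusted p under 0.05, 0 of the 45 were higher and 0 lower, while 19.8% of all 14621 genes tested passed, 11.6% higher and 8.21% lower. At an unadjusted p under 0.05, 10 proteasome genes were higher and 2 were lower, against 21.4% higher and 14.5% lower of all genes, together 35.8%. voom on the recovered reads, a test added after the data were seen, called 4 higher and 6 lower, against 16.1% higher and 15.4% lower of its 14378 genes. Both CX-5461 libraries lay above both DMSO libraries for 18 of the 45 genes, against 38.2% of all genes, and below both for 10, against 26.3%.

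The 31 constitutive subunits had similar levels in the groups, within the intervals given here. Their median difference was -0.00 on the log2(TPM + 1) scale, beside 0.07 over all genes tested, and single subunits ran between -0.28 for Psmd7 and 0.42 for Psmb6. Their 95% intervals together spanned folds of 0.636 to 1.97, so a doubling or halving of any one of them lay outside its interval. The median size of the difference, whatever its sign, was 0.16 for the 31 subunits, 0.25 for all genes tested and 0.23 for the 2900 genes with a mean level in the same range of 55.2 to 357 TPM. Of those 2900 genes 27.9% passed. Adjusted p ran between 0.0559 and 0.997 over the 31 subunits. Their summed level was 5194 and 5211 TPM in CX-5461 cells, against 5312 and 4707 TPM in DMSO cells, so both CX-5461 sums lay between the DMSO sums.

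**Figure D1:**
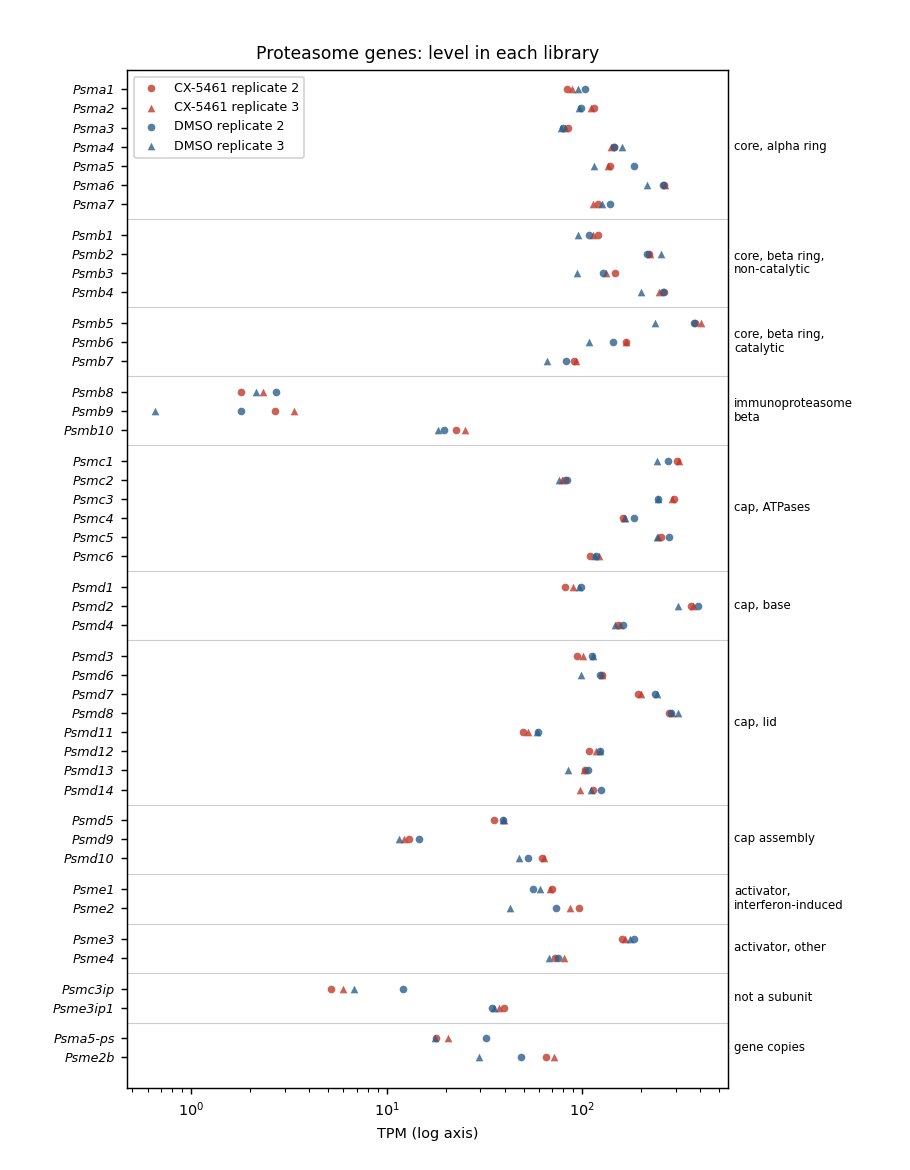
Level of the 45 tested proteasome genes in each library, in TPM on a log axis, with CX-5461 libraries in red and DMSO libraries in blue and the replicate number as the marker shape. The 31 constitutive subunits lie between 55.2 and 357 TPM on average, and Psmb8 and Psmb9 lie far below them, under 4 TPM in every library.

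The alpha ring of the core, which gates the entry to the barrel, showed differences of both signs. Psma2 had 114 and 110 TPM in CX-5461 cells, against 98.2 and 96.1 TPM in DMSO cells. Psma1 had 83.3 and 88.3 TPM in CX-5461 cells, against 103 and 94.5 TPM in DMSO cells. Psma2 thus lay higher and Psma1 lower in both CX-5461 libraries, with differences of 0.20 (adjusted p = 0.129) and -0.20 (adjusted p = 0.173), and neither passed. Over the 7 alpha subunits the difference ran between -0.20 and 0.20 with a median of -0.08, and both CX-5461 libraries lay above both DMSO libraries for 3 and below both for 2, near the shares of all genes (38.2% and 26.3%). Psma5, whose reads may be shared with the copy Psma5-ps, had 139 and 134 TPM in CX-5461 cells and 183 and 115 TPM in DMSO cells, the widest spread of the alpha genes.

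The beta subunits without a protease site, Psmb1, Psmb2, Psmb3 and Psmb4, had a median difference of 0.18, and none passed. Psmb3 had 147 and 132 TPM in CX-5461 cells, against 127 and 94.2 TPM in DMSO cells, a difference of 0.35 (adjusted p = 0.180), which was 0.56 without DMSO replicate 2 (adjusted p = 0.0324) and 0.13 without DMSO replicate 3 (adjusted p = 0.396). Psmb1 had 120 and 114 TPM in CX-5461 cells, against 108 and 95.4 TPM in DMSO cells, a difference of 0.20 (adjusted p = 0.192). Both CX-5461 libraries were above both DMSO libraries for Psmb3 and Psmb1, against 38.2% of all genes, and the groups overlapped for Psmb2 and Psmb4.

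The catalytic beta subunits had the highest median difference among the constitutive groups, 0.40, and none of the 3 passed. Psmb5, the chymotrypsin-like subunit, had 378 and 403 TPM in CX-5461 cells, against 374 and 234 TPM in DMSO cells. Psmb6, the caspase-like subunit, had 168 and 166 TPM in CX-5461 cells, against 144 and 108 TPM in DMSO cells. Psmb7, the trypsin-like subunit, had 90.2 and 93.3 TPM in CX-5461 cells, against 82.8 and 65.8 TPM in DMSO cells. In all 3 genes both CX-5461 libraries were above both DMSO libraries, against 38.2% of all genes. DMSO replicate 3 was the lowest library for each of the 3, by a wide gap. The log2 differences were 0.40 for Psmb5 (95% interval -0.18 to 0.98, adjusted p = 0.272), 0.42 for Psmb6 (0.07 to 0.78, adjusted p = 0.0955) and 0.31 for Psmb7 (-0.00 to 0.62, adjusted p = 0.14). Without DMSO replicate 2 all 3 passed, with differences of 0.73, 0.63 and 0.47, and in that fit 14% of all genes passed as higher. Without DMSO replicate 3 none of the 3 passed, with 0.062 for Psmb5 (adjusted p = 0.573), 0.22 for Psmb6 (adjusted p = 0.102) and 0.15 for Psmb7 (adjusted p = 0.247). The summed level of the 3 genes exceeded that of DMSO cells by 145 TPM with all libraries, by 241 TPM without DMSO replicate 2 and by 49.1 TPM without DMSO replicate 3. The part of DMSO replicate 3, the library with the high mitochondrial share, in these values was not tested.

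**Figure D2:**
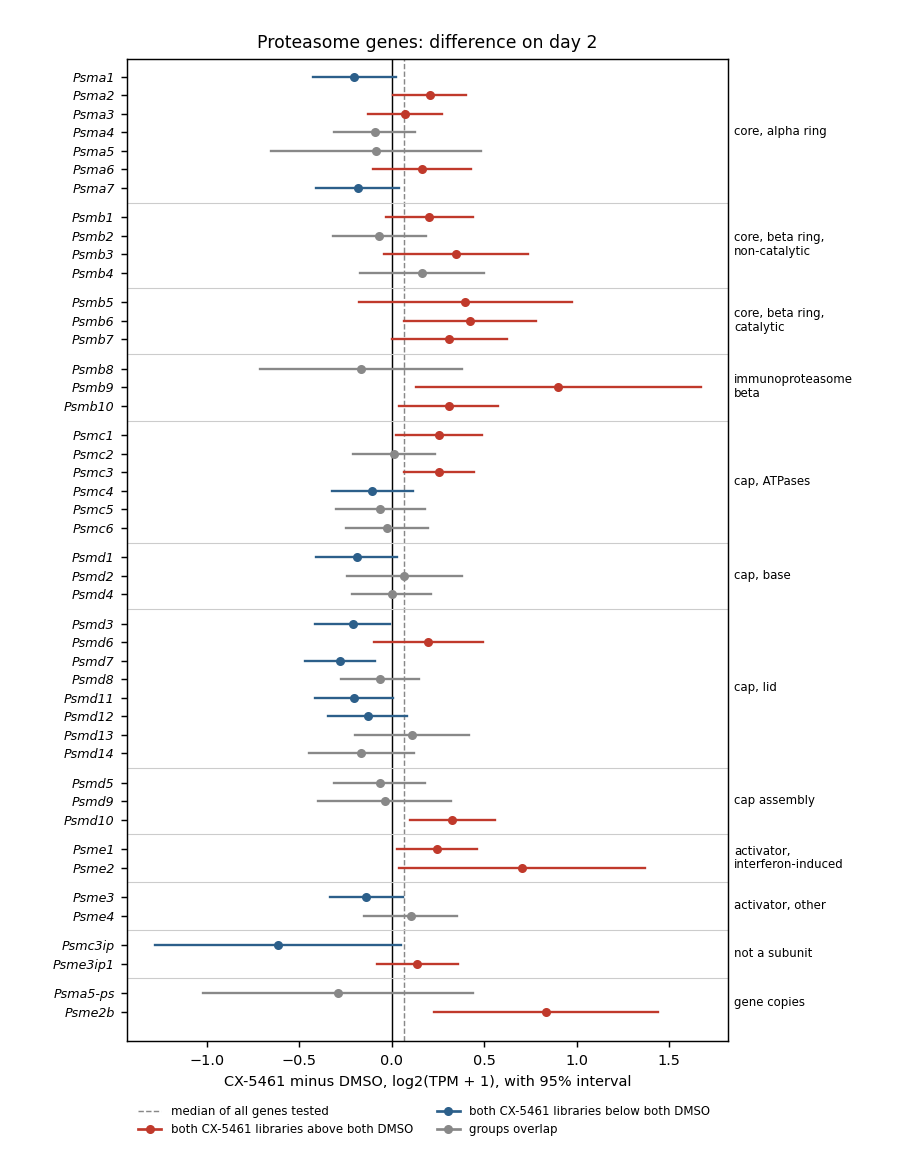
Difference between CX-5461 and DMSO cells for the 45 tested proteasome genes, on the log2(TPM + 1) scale, with points for the fitted difference and bars for its 95% interval. Red genes have both CX-5461 libraries above both DMSO libraries, blue genes have both below, and grey genes overlap. The catalytic beta genes lie to the right of 0 and most lid genes to the left, and no gene passed at an adjusted p under 0.05.

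In the cap, the 6 ATPases of the base had a median difference of -0.01. Psmc3 had 294 and 287 TPM in CX-5461 cells, against 243 and 243 TPM in DMSO cells, a difference of 0.25 (95% interval 0.07 to 0.44, adjusted p = 0.0688). Psmc1 had 303 and 312 TPM in CX-5461 cells, against 274 and 242 TPM in DMSO cells, a difference of 0.25 (adjusted p = 0.111) that passed without DMSO replicate 2 (0.34, adjusted p = 0.0331). Both lay higher in both CX-5461 libraries without passing in the fit of all libraries, and the other 4 ATPase genes ran close to 0, down to -0.10. The other base subunits in this set are Psmd1 and Psmd2, large scaffold subunits, and Psmd4, a ubiquitin receptor. Psmd1 had 81.3 and 89.3 TPM in CX-5461 cells, against 98.6 and 96.2 TPM in DMSO cells, a difference of -0.19 (adjusted p = 0.188). Psmd2 had 361 and 368 TPM in CX-5461 cells and 391 and 309 TPM in DMSO cells, with the CX-5461 values inside the DMSO range.

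The 8 lid genes had a median difference of -0.15, with 6 below 0 and 2 above. Psmd7, a scaffold partner of the deubiquitinating subunit Psmd14, had 193 and 199 TPM in CX-5461 cells, against 236 and 240 TPM in DMSO cells. Its means were 196 ± 3.99 TPM in CX-5461 cells and 238 ± 2.88 TPM in DMSO cells (SD, n = 2 each), and it is the constitutive subunit with the lowest adjusted p. The difference was -0.28 (95% interval -0.47 to -0.09, adjusted p = 0.0559). Psmd3, another lid scaffold, had 94.0 and 100.3 TPM in CX-5461 cells, against 112 and 113 TPM in DMSO cells, a difference of -0.21 (adjusted p = 0.13). Both CX-5461 libraries lay below both DMSO libraries for 4 of the 8 lid genes and above both for 1, against 26.3% and 38.2% of all genes. DMSO replicate 3 stood at 79.5% of DMSO replicate 2 for Psmd13, 80.5% for Psmd6 and 88.9% for Psmd14, and between 98.8% and 109% for the other 5 lid genes, Psmd7 and Psmd3 among them. It stood at 62.7%, 75.2% and 79.4% for Psmb5, Psmb6 and Psmb7. Psmd7 was past the threshold under median-of-ratios scaling (-0.35, adjusted p = 0.0276), quantile normalization (-0.38, adjusted p = 0.0261) and in voom (-0.34, adjusted p = 0.00471).

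Of the 3 factors that assemble the cap's base, none passed in the fit of all libraries. For 1 of them both CX-5461 libraries lay above both DMSO libraries, against 38.2% of all genes. Psmd10, also known as gankyrin, had 62.1 and 63.3 TPM in CX-5461 cells, against 52.4 and 47.2 TPM in DMSO cells, a difference of 0.33 (95% interval 0.10 to 0.56, adjusted p = 0.0601), and passed without DMSO replicate 2 (0.40, adjusted p = 0.0401). Psmd5 had 35.3 and 39.9 TPM in CX-5461 cells and 39.4 and 39.1 TPM in DMSO cells, a difference of -0.06 (adjusted p = 0.676). Psmd9, another such factor, lay between 11.5 and 14.6 TPM in all libraries, and its groups overlapped.

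Of the immunoproteasome subunits, Psmb8 and Psmb9 were low in these fibroblasts and Psmb10 was higher than both, and none passed the test. Psmb8 had 1.79 and 2.32 TPM in CX-5461 cells and 2.72 and 2.14 TPM in DMSO cells. Psmb9 had 2.69 and 3.35 TPM in CX-5461 cells, against 1.79 and 0.65 TPM in DMSO cells. Psmb10 had 22.5 and 25.0 TPM in CX-5461 cells, against 19.7 and 18.3 TPM in DMSO cells. Psmb9 and Psmb10 thus lay higher in both CX-5461 libraries, while the groups overlapped for Psmb8. The log2 differences were -0.17 for Psmb8 (95% interval -0.71 to 0.38, adjusted p = 0.626), 0.90 for Psmb9 (0.13 to 1.67, adjusted p = 0.0982) and 0.31 for Psmb10 (0.04 to 0.58, adjusted p = 0.102). The fold of Psmb9 on this scale understates the change of so low a gene, and its recovered reads were 101 and 124 in CX-5461 cells, against 67.5 and 27.5 in DMSO cells. Psmb9 passed in voom at a difference of 1.42 (adjusted p = 0.0139) and without DMSO replicate 2 at 1.28 (adjusted p = 0.0499), and it did not pass without DMSO replicate 3, at 0.52 (adjusted p = 0.249). The annotated ends of Psmb9 and Tap1 overlap by 212 bases on opposite strands in GENCODE M21, and whether the counting used strand is not given in the sources used here, so reads of this pair may be shared.

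Each immunoproteasome subunit was set against the constitutive subunit it replaces, within each library. Psmb9 stood at 1.6% and 2.01% of the Psmb6 level in CX-5461 cells, against 1.25% and 0.602% in DMSO cells. Psmb8 stood at 0.472% and 0.575% of the Psmb5 level in CX-5461 cells, against 0.727% and 0.911% in DMSO cells. Psmb10 stood at 24.9% and 26.8% of the Psmb7 level in CX-5461 cells, against 23.8% and 27.8% in DMSO cells. The libraries separated the groups upward for Psmb9, downward for Psmb8 and not at all for Psmb10. Summed, the 3 immunoproteasome genes reached 4.24% and 4.62% of the 3 catalytic genes in CX-5461 cells, against 4.03% and 5.16% in DMSO cells, so the CX-5461 values lay inside the DMSO range. With 2 libraries against 2, an exact two-sided permutation test of such a ratio cannot give a p below 0.333, and none was run.

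**Figure D3:**
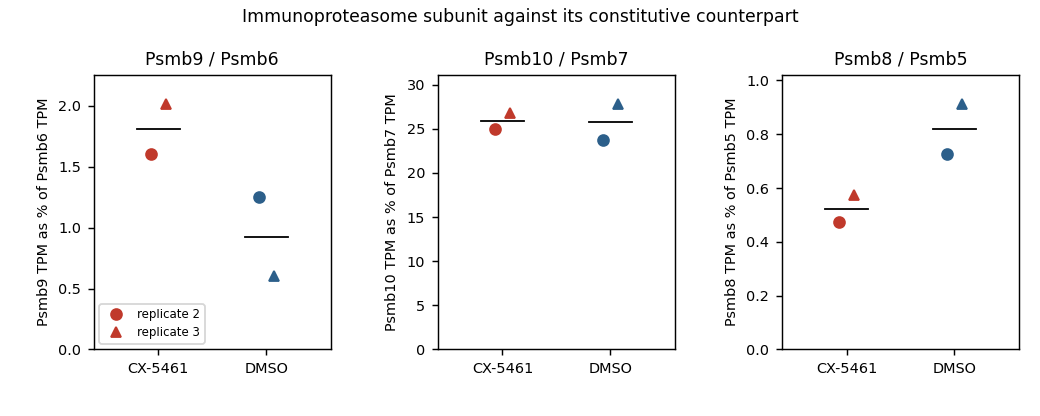
TPM of each immunoproteasome subunit as a percent of the constitutive subunit it replaces, in CX-5461 and DMSO libraries, with a line at each group's mean and the replicate number as the marker shape. Psmb9 is higher and Psmb8 lower in both CX-5461 libraries, and Psmb10 overlaps at 23.8% to 27.8%.

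The interferon-induced activator is a ring of Psme1 and Psme2 subunits, encoded near each other on chromosome 14 (Psme1 at chr14:55578494-55581527 and Psme2 at chr14:55587440-55591101 in RefSeq, build GRCm38.p6). Psme1 had 69.9 and 68.3 TPM in CX-5461 cells, against 56.0 and 60.5 TPM in DMSO cells, a difference of 0.24 (95% interval 0.03 to 0.46, adjusted p = 0.107). Psme2 had 96.3 and 86.7 TPM in CX-5461 cells, against 72.9 and 42.5 TPM in DMSO cells, a difference of 0.70 (95% interval 0.04 to 1.37, adjusted p = 0.123). Both genes lay higher in both CX-5461 libraries and neither passed. Psme2 passed without DMSO replicate 2 (1.09, adjusted p = 0.0131), with a replicate block (0.70, adjusted p = 0.0368) and in voom (0.67, adjusted p = 0.0150). It did not pass without DMSO replicate 3, at 0.32 (adjusted p = 0.113). Its close copy Psme2b, named here after its values were seen, had 65.1 and 71.2 TPM in CX-5461 cells, against 48.5 and 29.4 TPM in DMSO cells, a difference of 0.83 (adjusted p = 0.0695), which was 1.18 without DMSO replicate 2 (adjusted p = 0.0118) and 0.48 without DMSO replicate 3 (adjusted p = 0.0553). Reads of Psme2 and Psme2b may be split between them, so both values are uncertain. Psme2 stood at 138% and 127% of Psme1 in CX-5461 cells, against 130% and 70.2% in DMSO cells, where DMSO replicate 3 alone was low.

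The activators that interferon is not known to induce gave values of both signs. Psme3, the subunit of a nuclear activator ring, had 160 and 166 TPM in CX-5461 cells, against 183 and 176 TPM in DMSO cells, a difference of -0.14 (95% interval -0.33 to 0.06, adjusted p = 0.271). Psme4, a large single-chain activator, had 72.6 and 80.3 TPM in CX-5461 cells and 75.2 and 67.2 TPM in DMSO cells, a difference of 0.10 (adjusted p = 0.520). Psme3 lay lower in both CX-5461 libraries, and Psme4 overlapped. Over the 5 interferon-induced genes together, 4 had both CX-5461 libraries above both DMSO libraries, against 38.2% of all genes, and the median difference was 0.31, beside 0.07 for all genes tested. The 5 were not tested as a set.

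The remaining symbols do not name parts of the common proteasome. Psmc3ip, a cofactor of meiotic recombination, had 5.2 and 6.0 TPM in CX-5461 cells, against 12.1 and 6.78 TPM in DMSO cells, a difference of -0.62 (95% interval -1.28 to 0.05, adjusted p = 0.163). It was -0.24 without DMSO replicate 2 (adjusted p = 0.402) and passed at -0.99 without DMSO replicate 3 (adjusted p = 0.0453). Psme3ip1, which binds Psme3, had 39.5 and 37.6 TPM in CX-5461 cells, against 34.6 and 35.4 TPM in DMSO cells, a difference of 0.14 (adjusted p = 0.322). Psma8, the testis alpha subunit, stayed at or under 1.13 TPM and Psmb11, the thymus beta subunit, at or under 0.284 TPM in all libraries, and neither was tested. Of the pseudogene copies, Psmb5-ps was listed at 0 in all libraries, Psmb6-ps and Psmb7-ps2 stayed under 0.3 TPM, and Psmb6-ps2 had 0.138 and 0.141 TPM in CX-5461 cells and 0.828 and 2.09 TPM in DMSO cells.

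The DMSO libraries differed from each other for many proteasome genes. DMSO replicate 3 lay below DMSO replicate 2 for 36 of the 45 tested genes and for 24 of the 31 constitutive subunits, against 66.2% of all genes. DMSO replicate 3 was the lowest of the 4 libraries for 17 of the 31, against 6022 of all 14621 genes tested. Without DMSO replicate 2, 12 proteasome genes were called higher and 1 lower, 8 and 1 of them constitutive subunits, against 14% higher and 6.09% lower of all genes. Without DMSO replicate 3, 0 were called higher and 2 lower, against 6.48% and 5.77% of all genes. The median difference of the 31 subunits was 0.08 without DMSO replicate 2 and -0.00 with all libraries. Psmd7 had a difference of similar size against either DMSO library, at -0.29 without DMSO replicate 2, where it passed (adjusted p = 0.0474), and at -0.27 without DMSO replicate 3 (adjusted p = 0.0723). Psme1 stood at 0.19 without DMSO replicate 2 and at 0.30 without DMSO replicate 3, and passed in neither.

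The scaling of the libraries moved the counts of called proteasome genes as well. Median-of-ratios scaling called 1 higher and 2 lower, against 11.2% and 11.5% of all genes, and rescaling without mitochondrial and the 20 highest genes called 1 and 2, against 10.7% and 12.1%. Quantile normalization called 0 higher and 5 lower, against 11.2% and 11.3%. The lower genes under each were constitutive subunits, Psma1 and Psmd7 in all 3 settings, joined under quantile normalization by Psma7, Psmd1 and Psmd3. The higher gene was Psme2b. A filter of 5 TPM called 0 higher and 1 lower, Psmd7, against 15.2% and 9.84%, and a replicate block called 1 higher, Psme2, and 0 lower, against 10.9% and 7.52%.

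**Figure D4:**
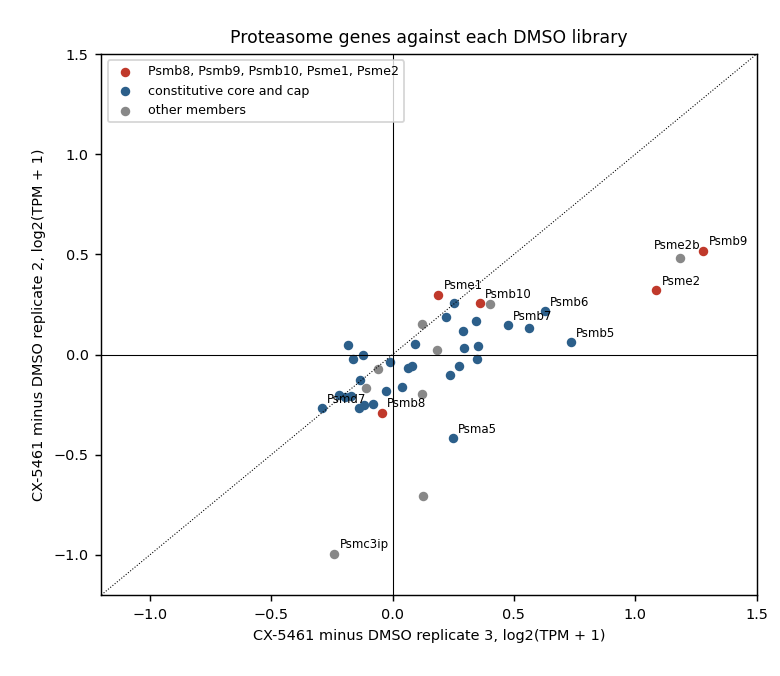
Difference of the CX-5461 mean from DMSO replicate 3 (x axis) and from DMSO replicate 2 (y axis), both on the log2(TPM + 1) scale, for the 45 tested proteasome genes. Genes on the dotted line have the same difference against both DMSO libraries. Psmb5, Psmb6, Psmb9 and Psme2 lie well to the right of it, as do Psmb3, Psma5, Psma5-ps, Psmc3ip and Psme2b.

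Genes that assemble, accompany or control the proteasome were tested in the same fit. Of 19 assembly and accessory genes tested in limma, 0 were higher and 2 lower, against 11.6% and 8.21% of all genes. At an unadjusted p under 0.05 they were 0 and 4, against 21.4% and 14.5%, and voom called 1 and 4, against 16.1% and 15.4%. Paaf1 was not analysed here. Uchl5, a deubiquitinase of the cap, had 19.8 and 19.6 TPM in CX-5461 cells, against 34.5 and 28.3 TPM in DMSO cells, and fell by 0.64 (adjusted p = 0.0200). Ubqln2, which carries ubiquitinated proteins to the proteasome, had 66.0 and 61.8 TPM in CX-5461 cells, against 85.7 and 83.8 TPM in DMSO cells, and fell by 0.40 (adjusted p = 0.0262). Pomp, the chaperone of core assembly, had 56.8 and 55.7 TPM in CX-5461 cells, against 51.4 and 33.4 TPM in DMSO cells, a difference of 0.43 (adjusted p = 0.202), with DMSO replicate 3 low as for the catalytic genes. Among 11 genes around the transcription of proteasome genes, 1 was higher and 0 were lower in limma, with 2 and 0 at an unadjusted p under 0.05, near the all-gene shares of 11.6% and 21.4% higher, and voom also called 0 lower. That gene was Mafk, a small Maf protein that pairs with Nfe2l1 and Nfe2l2, with 73.0 and 72.7 TPM in CX-5461 cells, against 45.6 and 47.6 TPM in DMSO cells (0.63, adjusted p = 0.00611). Nfe2l1 had 248 and 232 TPM in CX-5461 cells and 263 and 244 TPM in DMSO cells (-0.08, adjusted p = 0.551), and Nfe2l2 gave -0.20 (adjusted p = 0.313).

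The class I presentation genes, whose products load the peptides that proteasomes make, did pass in number. Of 13 tested, 8 were higher and 0 lower in CX-5461 cells (10 and 0 at an unadjusted p under 0.05 in limma, and 0 lower in voom), with a median difference of 0.50, against 11.6% of all genes called higher. Tap1, a chain of the peptide transporter, had 57.8 and 71.2 TPM in CX-5461 cells, against 22.6 and 20.4 TPM in DMSO cells. It rose by 1.53 on the log2(TPM + 1) scale (95% interval 1.21 to 1.85, adjusted p = 0.00175) and passed with each library left out. Tap2, the other chain, had 32.8 and 31.8 TPM in CX-5461 cells, against 18.5 and 13.4 TPM in DMSO cells (0.99, adjusted p = 0.0119). The class I heavy chains H2-D1 (0.76, adjusted p = 0.00611) and H2-K1 (0.90, adjusted p = 0.0116) were also higher, with reads that similar heavy chain genes may share. Nlrc5, the activator of class I transcription, had 3.69 and 5.36 TPM in CX-5461 cells, against 2.00 and 1.90 TPM in DMSO cells (0.89, adjusted p = 0.0405). Without CX-5461 replicate 2, or without CX-5461 replicate 3, only Tap1 of the 13 passed, and 315 and 237 genes of the whole table were then called higher in place of 1694.

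Tap1, Tap2, Psmb8 and Psmb9 lie in 1 cluster on chromosome 17, in the order Psmb9 (chr17:34182030-34187330), Tap1 (chr17:34187556-34197225), Psmb8 (chr17:34198195-34201454) and Tap2 (chr17:34204479-34216321) in RefSeq, build GRCm38.p6. The neighbours gave unlike values: Tap1 and Tap2 passed as higher, Psmb9 was higher in both CX-5461 libraries without passing, and Psmb8 overlapped. The interval of the Psmb8 difference, -0.71 to 0.38, did not reach the lower bounds of 1.21 for Tap1 and 0.60 for Tap2. Psmb8 lay at 1.79 to 2.72 TPM, where the log2(TPM + 1) scale understates changes more than for Tap1 and Tap2. The intervals are therefore not on like terms. A test between genes was not run.

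**Figure D5:**
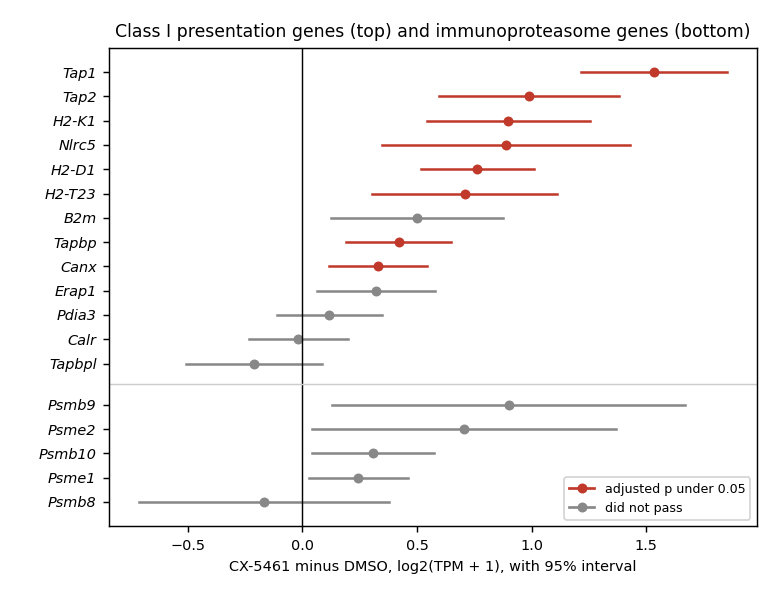
Difference between CX-5461 and DMSO cells for the 13 class I presentation genes (top) and the 5 interferon-induced proteasome genes (bottom), on the log2(TPM + 1) scale, with 95% intervals. Red genes passed at an adjusted p under 0.05. Tap1 is highest at 1.53, and none of the 5 proteasome genes passed.

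Of 44 interferon response genes listed, 34 were tested, 7 were higher and 1 was lower, against 11.6% and 8.21% of all genes. Ifi35, an interferon-induced leucine zipper protein, was higher by 0.79 (adjusted p = 0.00694), and Usp18, which removes the ubiquitin-like Isg15, by 1.04 (adjusted p = 0.0140). Irgm1, an immunity-related GTPase, was higher by 0.66 (adjusted p = 0.0180), and Ifngr2, a chain of the interferon gamma receptor, by 0.45 (adjusted p = 0.0180). Jak2, the receptor's kinase and the 1 lower gene, is named because it was alone, with a difference of -0.43 (adjusted p = 0.0263). Irf1, a factor known to switch on Psmb9 and its neighbours, had 12.2 and 13.5 TPM in CX-5461 cells, against 10.7 and 9.36 TPM in DMSO cells. Its difference of 0.33 (95% interval 0.0015 to 0.66, adjusted p = 0.138) did not pass. Calls of higher genes fell with either CX-5461 library left out, among these 34 as over all genes.

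Markers of cell types had differences of both signs. Their counts stand against 11.6% higher and 8.21% lower of all genes. Of 10 fibroblast markers 5 were lower and 1 higher, and their summed level was 11074 and 10778 TPM in CX-5461 cells, against 13846 and 11664 TPM in DMSO cells. Lum fell by 1.03 (adjusted p = 0.00131), Pdgfra by 0.85 (adjusted p = 0.00415), Dcn by 0.58 (adjusted p = 0.0101) and Thy1 by 0.62 (adjusted p = 0.0145). Of 14 immune markers, whose cells hold more immunoproteasome than fibroblasts do, 9 were tested, 1 was higher and 0 were lower, with 2 and 0 at an unadjusted p under 0.05 in limma, so the count of 1 in 9 was near the all-gene share. That marker was the macrophage gene Adgre1, with 10.4 and 8.98 TPM in CX-5461 cells, against 4.48 and 4.99 TPM in DMSO cells (0.90, adjusted p = 0.0137). The summed level of the 14 was 136 and 156 TPM in CX-5461 cells, against 114 and 123 TPM in DMSO cells. All 9 tested immune markers had a difference above 0, as did 8404 of all 14621 genes tested. Their median difference was 0.25, beside 0.07 for all genes tested. Mean levels of the 9 ran from 1.26 TPM for H2-Ab1 to 42.0 TPM for Cd68. The other 5 had means under 1 TPM. Among these 5, the T cell gene Cd3e was listed at 0 in all libraries, and Ptprc, found on all leukocytes, stayed at or under 1.27 TPM. Of 5 endothelial markers Kdr was higher by 1.78 (adjusted p = 0.000729) and Tek was lower by 0.39 (adjusted p = 0.0299), and the other 3 were under 1 TPM. Of 6 keratinocyte markers none of the 3 tested passed in limma, with 1 higher and 1 lower at an unadjusted p under 0.05, and Krt14 had -0.87 (adjusted p = 0.0641) and Krt5 0.57 (adjusted p = 0.139). The part of these cells in the values of Psmb9, Psmb10, Psme1, Psme2 and the class I genes was not tested.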

How the data were processed

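The authors deposited TPM values for 4 libraries of poly(A)-selected RNA, 2 per group, and build mm10 is named in the submitters' processing notes. The sources used here name no aligner, counter, annotation or strand setting. Groups and replicate numbers came from the sample titles. The fit was limma's lmFit and eBayes (version 3.58.1, R 4.3.3), with its trend and robust options and without covariates, on log2(TPM + 1) of the genes whose mean reached 1 TPM. It had 2 residual degrees of freedom. Benjamini-Hochberg adjustment covered all 14621 genes of the fit, with a threshold of 0.05. A fold on this scale understates changes of low genes. The procedure was tested on simulated data.

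TPM times the GENCODE M21 exon length fell on regular steps in each library. The step that fitted best was taken to hold 2 reads, as where both ends of a pair are counted. In units of 1 such read, 69.3% to 69.5% of values were whole to within 0.01, where chance would give 2%. If both ends were counted, independent fragments are fewer than these reads. These reads gave the depth and entered voom. Overlapping and duplicated genes are uncertain. Members, lists, motifs and tests were chosen with earlier results of these data known. Named were the catalytic, immunoproteasome and activator genes, the 2 genes with the lowest adjusted p in each other role, and up to 4 passing genes (2 where none passed) per further list, with Nfe2l1, Nfe2l2, Nlrc5, Irf1 and Pomp. Some genes chosen by this rule are not reported here.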

Additional observations from a re-analysis of the deposited data

How the results depend on the processing

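The counts of called proteasome genes, 0 higher and 0 lower, moved under several settings. Higher and lower calls were 1 and 2 under median-of-ratios scaling, 0 and 5 under quantile normalization, 1 and 2 after rescaling without mitochondrial and the 20 highest genes, 0 and 1 with a filter of 5 TPM, 5 and 1 at an adjusted p under 0.1, and 4 and 6 in voom. With 1 library left out they ran over 0 to 12 and 0 to 2. For the 31 constitutive subunits they were 0 and 2, 0 and 5, 0 and 2, 0 and 1, 2 and 1, and 1 and 6 in the same order, and 0 to 8 and 0 to 1 with 1 library left out. Their median difference was -0.11 under quantile normalization, -0.084 after the rescaling and -0.039 to 0.081 with 1 library left out. Over all genes, 1694 higher and 1201 lower calls became 1568 and 1762 after the rescaling. Higher calls were 1051 with no filter and 1128 without trend and robust, 548 and 2623 at adjusted p under 0.01 and 0.1, and 237 to 2047 with 1 library left out. Lower calls were 2210 in voom, 518 at 0.01 and 364 to 891 with 1 library left out. The cause of these shifts was not tested.

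Signs of small differences turned in 13 genes, none of which passed in the fit of all libraries. In the order median-of-ratios, quantile and rescaling, Psmd2 was -0.0018, -0.018 and -0.016, and Psmc2 was -0.057, -0.091 and -0.071. Psma3 was -0.028 under quantile normalization and -0.011 after the rescaling, and Psmc2 was -0.044 in voom. With 1 library left out, Psmd2 ran between -0.10 and 0.24, Psmd5 between -0.15 and 0.023, Psma5 between -0.42 and 0.25, Psma5-ps between -0.71 and 0.12, and Psmb2 between -0.18 and 0.047. Likewise Psmb4 ran between -0.024 and 0.35, Psmc2 between -0.058 and 0.081, Psmc5 between -0.16 and 0.039, and Psmc6 between -0.10 and 0.052. Psmd13 ran between -0.056 and 0.27, Psmd4 between -0.065 and 0.064, and Psmd9 between -0.20 and 0.12.

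The labels do not say whether same-numbered libraries were handled together. The deviations of those numbered 2 from their group means correlated at 0.031 over genes. With 2 libraries per group, this value cannot decide whether the libraries were paired. A replicate block gave 1 higher and 0 lower proteasome gene, Psme2 (adjusted p = 0.0368). The other 44 tested proteasome genes kept their side of the threshold.

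With 2 libraries per group and 1 DMSO library apart in its mitochondrial share, small differences were at the limit of detection. Where a library was left out, the lone one of its group was taken to vary as the other group does. Psmb8 and Psmb9 rest on 27.5 to 124 reads per library, so counting error weighs on them more than on the constitutive subunits.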
